A study of Mus musculus with 3 samples.

Results

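The genes described here are those whose deposited symbol names a protein of the cytosolic ribosome or a pseudogene of one. They were chosen by a pattern on the symbol (Rpl or Rps with a number, the stalk proteins Rplp0, Rplp1 and Rplp2, and Rpsa). The pattern uses no measured value, but it was set with earlier results of these data known. The pattern found 128 of the 15503 genes listed in the deposited tables. Of these, 84 are parents, with a plain symbol, and 44 are pseudogenes, with "-ps" in the symbol. Of the 128, 106 occur in all 3 tables, 9 in 2 and 13 in 1.

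RNA of left ventricles of C57BL6J mice was sequenced in 3 libraries, each a pool of 3 mice of one genotype. Egln1_floxed is the control pool, with floxed Egln1 alleles per its label. Egln1_Tie2Cre is labelled for deletion of Egln1, the gene of the oxygen-sensing enzyme PHD2, by Cre recombinase under the Tie2 promoter, which is active in endothelial and blood-forming cells. Egln1_Hif2a_Tie2Cre is labelled for deletion of Egln1 and of Hif2a, whose gene is Epas1, with the same Cre. The age of the mice is not given in the sources used here. The comparisons address the effect on the ventricle of losing Egln1 in Tie2-expressing cells, and that of losing Hif2a as well. Each genotype has 1 library, so every difference below is a difference between libraries, with no spread between replicates to set it against and no p-value. In whole tissue, fewer cells of a type and less RNA per cell cannot be told apart.

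A few facts of the libraries bear on every result. Egln1 stood at 129.5, 95.7 and 129.0 FPKM (fragments scaled by transcript length and by the number of mapped fragments) in the order floxed, Egln1_Tie2Cre and Egln1_Hif2a_Tie2Cre. The last library was thus level with the control in the gene it is labelled as lacking in Tie2-expressing cells. The RNA is of the whole ventricle, so these values do not measure the deletion in those cells. Epas1 stood at 77.4, 65.0 and 54.5 FPKM. All 10 cardiomyocyte markers were listed and summed to 58601, 67907 and 66531 FPKM, so the markers of the labelled tissue were present. The 7 endothelial markers, all listed, summed to 330.2, 379 and 424 FPKM. Of 5 neutrophil markers only 2 were listed, and they summed to 1.96, 54.6 and 9.62 FPKM. Of 6 macrophage markers 5 were listed, and they summed to 118, 84.7 and 178 FPKM, in sum the order of the parents described here. Singly, 4 of the 5 were lower in Egln1_Tie2Cre than in floxed and 1 was higher. In Egln1_Hif2a_Tie2Cre 2 of the 5 were higher than in floxed and 3 lower, with Lyz2 furthest apart at a log2 ratio of 0.73. The 5 erythroid markers, all listed, summed to 549.6, 509.7 and 400.4 FPKM. Against floxed, 2 of them were at least 2-fold lower in Egln1_Tie2Cre, Hbb-bt (52.2, 8.45 and 38.9) and Hba-a2 (108.3, 22.4 and 78.4). Of the 5, 1 was at least 2-fold higher there, and 2 in all were higher by any amount. The 6 fibroblast markers, all listed, summed to 342, 349 and 409 FPKM. The part of these cell types in the results was not tested. Mitochondrially encoded genes summed to 194048, 77508 and 212044 FPKM, so Egln1_Tie2Cre stood apart there too, and the part of that shift in the results was not tested. Depth is not given, but the lowest values recur in steps. The 456-base intronless genes Rps13-ps4 and Gm6096 were both at 0.181 FPKM in floxed and in Egln1_Tie2Cre, and they differed by 0.138 FPKM in Egln1_Hif2a_Tie2Cre. If those steps are single fragments, a pseudogene under 1 FPKM rests on a few fragments.

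A mammalian cytosolic ribosome is built from a large and a small subunit, each made of ribosomal RNA and a fixed set of proteins encoded by Rpl and Rps genes. These genes are among the most abundant messages of most tissues, and their messages carry an oligopyrimidine tract at the 5-prime end that ties their translation to the growth regulator mTOR. Because they are so abundant, their spliced messages have often been copied back into the genome by retrotransposition. The resulting processed pseudogenes, or retrocopies, lack the introns of the parent and are scattered over other chromosomes. A sequenced fragment from a parent message can therefore match a copy nearly as well or equally well.

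Gene structure was read from GENCODE M21 (build GRCm38), matched by gene identifier. Among the parents, 81 had between 3 and 10 exons and coding lengths between 75 and 1257 bases. Rps3a2 and Rps3a3 carry plain symbols but are 1-exon processed pseudogenes there, copies of Rps3a1. The row with the symbol Rpl24 carries the identifier of Zbtb11, a gene of another kind, and its values of 3.54, 3.39 and 4.24 FPKM are not those of a ribosomal protein. Of the 44 pseudogenes, 43 were matched, 42 of them with 1 exon and 1 (Rpl31-ps23) with 2. Identity to the coding sequence of a parent could be measured for 42 and ranged from 92.4% to 100%, with a median of 99.4%. It was 100% for 10. Only 1 matched another parent than its name says.

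The sequences in which copies match or depart from the parent are shown for 4 families, because the results divide along this property. All are 90-base stretches of coding sequence, written 5′ to 3′, from GENCODE M21 transcripts, with positions counted from 1 at the first base of the start codon. Rps16 (chr7:28350652-28353155, plus strand), a small subunit protein, and its copy Rps16-ps2 (chr5:129128077-129128517, minus strand) are identical over the whole coding sequence. Positions 203 to 292 are shown, and the capitals mark 10 bases on either side of a splice junction that the copy carries without an intron.
Rps16: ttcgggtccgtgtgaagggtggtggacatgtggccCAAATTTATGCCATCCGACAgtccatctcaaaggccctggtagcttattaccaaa
Rps16-ps2: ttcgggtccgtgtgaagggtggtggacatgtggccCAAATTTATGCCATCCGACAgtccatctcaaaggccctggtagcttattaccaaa

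Rps13 (chr7:116331505-116334195, minus strand), also of the small subunit, has 3 named copies. These are Rps13-ps2 (chr7:88530446-88530898, minus strand), identical in all 453 coding bases, Rps13-ps1 (chr8:87047689-87048226, plus strand), with 2 differing bases, and Rps13-ps4 (chr8:119602170-119602625, minus strand), with 3. Capitals in positions 32 to 121 mark the positions at which a copy shown departs from the parent.
Rps13: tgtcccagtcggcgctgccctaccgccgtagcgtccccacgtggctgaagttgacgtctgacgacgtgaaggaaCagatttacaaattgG
Rps13-ps2: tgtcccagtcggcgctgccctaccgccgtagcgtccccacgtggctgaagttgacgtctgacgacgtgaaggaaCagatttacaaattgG
Rps13-ps1: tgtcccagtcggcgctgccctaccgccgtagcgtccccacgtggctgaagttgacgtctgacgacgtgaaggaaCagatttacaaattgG
Rps13-ps4: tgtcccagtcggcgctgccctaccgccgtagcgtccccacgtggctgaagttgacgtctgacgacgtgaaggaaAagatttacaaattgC

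Rpl19 (chr11:98026710-98030492, plus strand), a large subunit protein, is followed by Rpl19-ps11 (chr8:19492936-19493526, plus strand), which differs from it in 1 of 588 coding bases, outside the stretch shown, and by Rpl19-ps1 (chr1:85012114-85012704, plus strand), which differs in 5. Positions 49 to 138 are shown with differing positions in capitals.
Rpl19: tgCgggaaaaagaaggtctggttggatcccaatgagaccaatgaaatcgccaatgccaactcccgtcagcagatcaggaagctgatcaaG
Rpl19-ps11: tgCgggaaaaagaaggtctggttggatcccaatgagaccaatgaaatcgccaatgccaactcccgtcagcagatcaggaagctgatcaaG
Rpl19-ps1: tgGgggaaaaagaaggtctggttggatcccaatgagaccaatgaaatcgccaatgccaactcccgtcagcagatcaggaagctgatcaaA

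Rps15 (chr10:80292453-80294114, plus strand), which lies near the decoding site, has as its closest copy Rps15-ps2 (chr6:58017506-58017943, plus strand), with 10 differing bases in 435. That copy is not listed by its identifier, so no value is given for it. Positions 145 to 234 hold 6 of the differing bases, in capitals.
Rps15: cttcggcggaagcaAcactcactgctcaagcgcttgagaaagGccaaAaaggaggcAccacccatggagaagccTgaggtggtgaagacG
Rps15-ps2: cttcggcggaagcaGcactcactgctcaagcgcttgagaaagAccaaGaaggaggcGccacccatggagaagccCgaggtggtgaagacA

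In the floxed ventricle the parents were abundant and the pseudogenes nearly silent. The median parent stood at 291 FPKM and 77 of 84 parents were at 100 FPKM or more. The median over the 39 pseudogenes with a floxed value was 0.430 FPKM, and 30 of them were under 1. Parents made up 4.07% of all FPKM in this library and pseudogenes 0.0283%. In Egln1_Hif2a_Tie2Cre the picture was the same, with a median of 408 FPKM over 83 parents and 0.336 over 40 pseudogenes, and 5.27% and 0.00368% of all FPKM. In Egln1_Tie2Cre the median over 82 parents was 16.001 FPKM and that over 43 pseudogenes was 59.2. Parents there took 1.71% of all FPKM and pseudogenes 0.787%. The most abundant parent was the stalk protein Rplp1 in floxed (1223 FPKM) and in Egln1_Hif2a_Tie2Cre (1520), and Rpl13a in Egln1_Tie2Cre (1921).

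**Figure D1:**
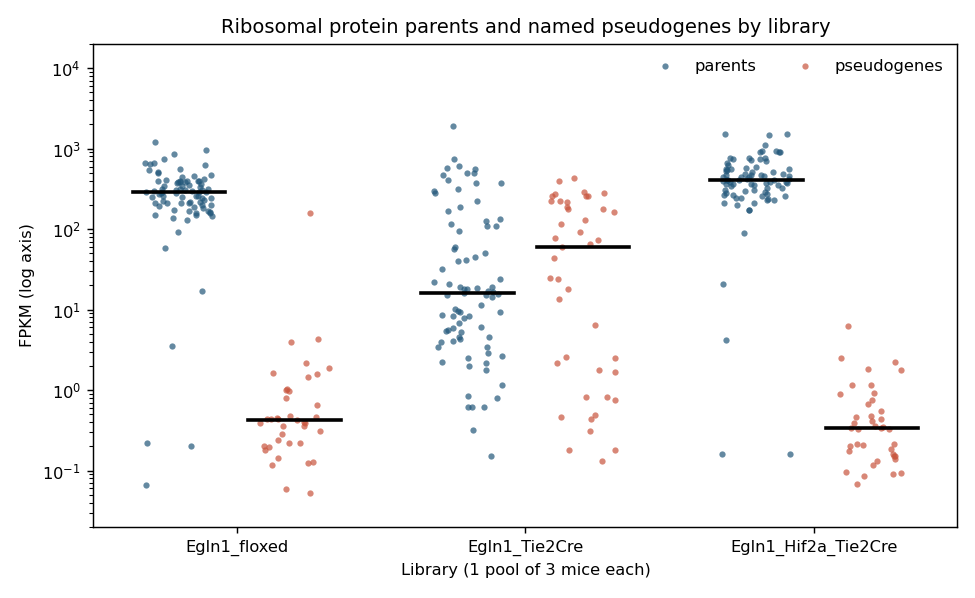
FPKM on a log axis of each parent (blue) and each named pseudogene (red) in the 3 libraries, with the median as a black line; 1 point is 1 gene. The medians of the classes stand at 291 against 0.430 FPKM in floxed, 16.001 against 59.2 in Egln1_Tie2Cre and 408 against 0.336 in Egln1_Hif2a_Tie2Cre.

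Deletion of Egln1 was addressed by setting Egln1_Tie2Cre beside the floxed library. Ratios are on the log2 scale of FPKM + 1, and genes with a mean of at least 1 FPKM over the pair were kept. Of the 81 parents kept, 60 were at least 2-fold lower in Egln1_Tie2Cre and 3 at least 2-fold higher, beside 3.84% and 3.93% of all 11978 genes kept. The parents' median log2 ratio was -3.97, against 0.02 over all genes. The 3 higher ones were Rpl13a and the intronless Rps3a2 and Rps3a3. Proteins of both subunits were lower, with 39 of 48 of the large subunit (median -4.45) and 21 of 30 of the small subunit (median -3.25) at least 2-fold lower among parents with introns.

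Large subunit parents were furthest apart at Rpl23a, which sits at the exit of the peptide tunnel. It stood at 658 FPKM in floxed, 0.611 in Egln1_Tie2Cre and 905 in Egln1_Hif2a_Tie2Cre. Rpl17, another tunnel protein, stood at 254, 0.321 and 395 FPKM. In both, the Egln1_Tie2Cre library alone was low, by 1077-fold for Rpl23a and 791-fold for Rpl17 against floxed. These folds divide by values under 1 FPKM, which may rest on a few fragments. Summed with its listed intronless copies, Rpl23a stood at 660, 138 and 908 FPKM, and Rpl17 at 257, 105.5 and 396. Rpl5 and Rpl11, which carry the 5S ribosomal RNA and bind Mdm2, showed the same order. Rpl5 stood at 210.4, 6.13 and 260.1 FPKM, and Rpl11 at 298, 4.55 and 461. Rpl10, which joins the large subunit late in its assembly, stood at 399, 9.52 and 515 FPKM.

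Among small subunit parents, Rps29, a short zinc-binding protein, stood at 954, 2.20 and 1511 FPKM, a 434-fold difference between Egln1_Tie2Cre and floxed. Rps6, the substrate of the S6 kinases, stood at 292, 0.620 and 373 FPKM, a 471-fold difference that divides by a value under 1 FPKM. Rps29 had the lowest ratio of the small subunit on the log2 scale of FPKM + 1, and Rps6 the larger fold in FPKM. Rps13 stood at 329, 0.848 and 442 FPKM, and Rps23, of the decoding centre, at 306, 1.16 and 470. In each of the 4, Egln1_Tie2Cre lay more than 100-fold below the other libraries, which were within 1.6-fold of each other. Rps2, Rps12 and Rps24 are among the 10 parents with the highest mean. Rps24 stood at 736, 117 and 1107 FPKM and Rps2 at 667, 109.9 and 913. Rps12 stood at 494 FPKM in floxed and 734 in Egln1_Hif2a_Tie2Cre, and no Egln1_Tie2Cre value is listed for it. Rps27 likewise has only the floxed (219 FPKM) and Egln1_Hif2a_Tie2Cre (375) values.

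The stalk of the large subunit, which recruits elongation factors, varied among its members. Rplp2 stood at 368, 18.3 and 572 FPKM in floxed, Egln1_Tie2Cre and Egln1_Hif2a_Tie2Cre. Rplp1 stood at 1223, 311 and 1520 FPKM, and Rplp0 at 256, 126.3 and 274. The distance of Egln1_Tie2Cre from floxed thus ran from 20.1-fold for Rplp2 over 3.93-fold for Rplp1 to 2.03-fold for Rplp0. Rpsa, the small subunit protein also known as the laminin receptor, stood at 192, 16.3 and 242 FPKM.

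The authors' deposited table gives a q-value for each gene, which compares 2 pooled libraries and not genotypes. In the authors' deposited table, a total of 20 parents had a q-value of 0.05 or less, all lower in Egln1_Tie2Cre, and 0 pseudogenes did, against 69 of all 14827 genes listed. The size of a difference did not set its q-value. The authors' deposited table gives Rps29, at 434-fold, a q-value of 0.9996 and Rpl7a, at 72.7-fold (317.5, 4.37 and 360 FPKM), a q-value of 0.0112.

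The parents did not all differ between the libraries, and they divided by the closeness of their retrocopies. For each parent with introns, the closest intronless copy in GENCODE M21 was found by sequence. Of 63 parents with a copy at least 98% identical to their coding sequence, 60 were at least 2-fold lower in Egln1_Tie2Cre, with a median log2 ratio of -4.44. Of 15 parents without such a copy, 0 were at least 2-fold lower, 1 was at least 2-fold higher and 11 were higher by any amount, beside 51.9% of all genes kept. Their median was 0.56. The 98% boundary was chosen after these values were seen. At 97% the medians were -4.40 and 0.58. At 99% they were -4.89 and -0.16. Across 74 parents with a measured copy, the ratio had a Spearman rho of -0.72 with the identity of the closest copy. Across all 78 parents it had -0.75 with the share of 50-base coding windows found unchanged in a copy. These describe genes of the same 2 libraries, which are not independent. The coding length (rho 0.12) and the exon number (rho 0.04) showed no such order. How fragments that match a parent and a copy were assigned is not given in the sources used here, so the values of all parents with such copies are uncertain, and the part of that assignment in the results was not tested.

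**Figure D2:**
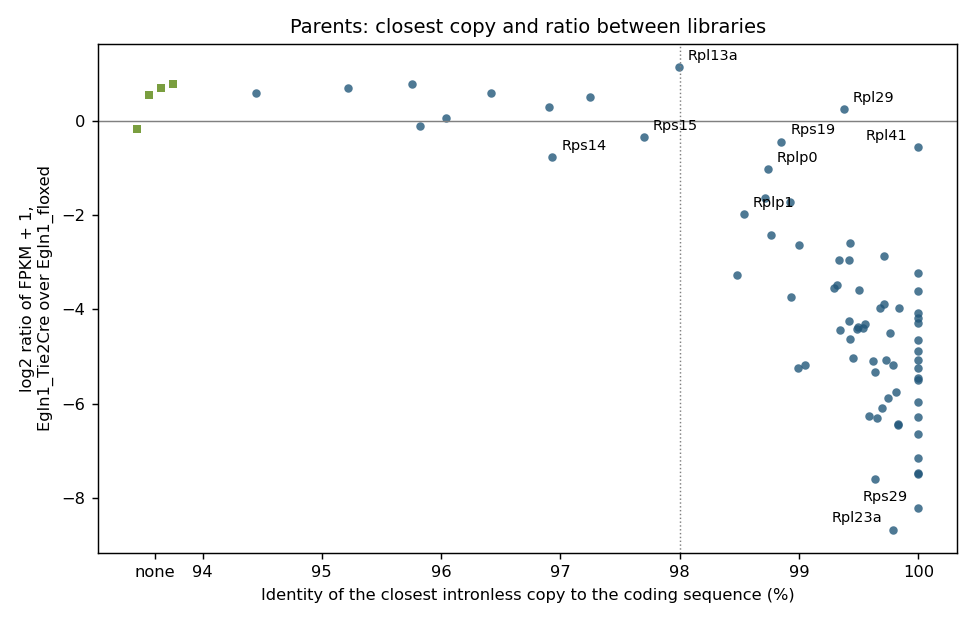
Each point is a parent with introns; the horizontal axis is the identity of its closest intronless copy (green squares: no copy of at least 90%), the vertical axis the log2 ratio of FPKM + 1 between Egln1_Tie2Cre and floxed, and the dotted line 98%. Left of the line the ratios lie between -0.77 and 1.14, and right of it between -8.68 and 0.25.

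Among the parents without a close copy, Rpl13a was the most abundant, at 869, 1921 and 1487 FPKM in floxed, Egln1_Tie2Cre and Egln1_Hif2a_Tie2Cre. Its closest copy is 97.99% identical, which puts it just outside the boundary, as Rps15 (97.7%) is, while Rps4x (98.5%) and Rplp1 (98.5%) lie just inside. Rps3, Rpl8 and Rpl3l have no intronless copy of at least 90% at all. Rps3, at the entry of the messenger channel, stood at 173.6, 284 and 242 FPKM. Rpl8, next to the peptidyl transferase centre, stood at 386, 567 and 471 FPKM. In Rps3 and Rpl8 the floxed library was the lowest and Egln1_Tie2Cre the highest.

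Rps9, Rps21, Rpl22, Rpl4 and Rps27l followed the same direction from floxed to Egln1_Tie2Cre. Rps21 stood at 459, 747 and 771 FPKM, and Rps9 at 400.1, 566 and 546. Rpl32 hardly differed, at 444 and 466 FPKM, with 714 in Egln1_Hif2a_Tie2Cre. The exceptions to that direction were Rps14, Rps15, Rpl3l and Rpl7l1. Rps14, one copy of which is lost in a form of myelodysplastic syndrome, stood at 511, 299.8 and 751 FPKM, and Rps15 at 639, 503 and 919. With Rpl39l, which was too low to be kept, the 16 parents without a close copy made up 20.6% of the parents' FPKM in floxed, 77.0% in Egln1_Tie2Cre and 20.7% in Egln1_Hif2a_Tie2Cre.

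**Figure D3:**
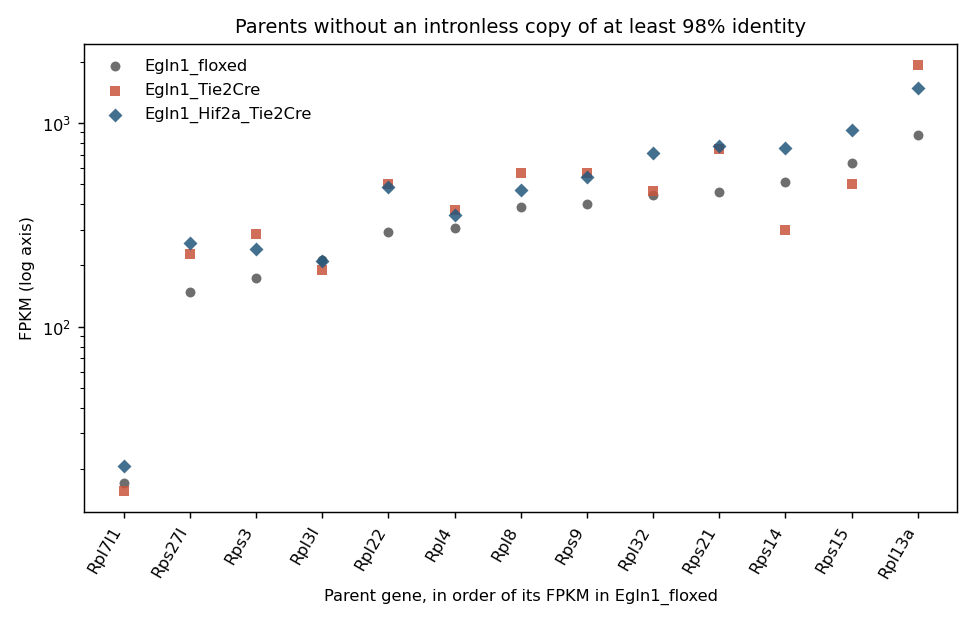
FPKM on a log axis of 13 parents of at least 10 FPKM in floxed without an intronless copy of at least 98% identity, in order of their floxed value, with 1 symbol per library. Egln1_Tie2Cre stands below floxed for Rpl7l1, Rpl3l, Rps14 and Rps15 and above it for the other 9.

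On the other side of the boundary, Rpl41, Rps19 and Rpl29 were within 2-fold although they have copies of 98% or more. Rpl41, the shortest ribosomal protein with 75 coding bases, stood at 545, 372 and 928 FPKM. Rps19, the gene most often mutated in Diamond-Blackfan anaemia, stood at 226, 166 and 355 FPKM. Rpl29 stood at 92.8, 110.6 and 340.4 FPKM. Rplp0 and Rps15a were nearest to them, at log2 ratios of -1.02 and -1.63.

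Paralogues offered a comparison within a protein. Rpl3l, the striated muscle form of Rpl3, has no close copy and stood at 213, 190.4 and 209.8 FPKM, nearly level over the libraries. Its partner Rpl3, with a copy 99.8% identical, stood at 146.6, 8.41 and 175.1 FPKM. Rpl3l was thus the more abundant form in every library. In Egln1_Tie2Cre the Rpl3 value is uncertain for its copy, and Rpl3 with Rpl3-ps1 summed to 125.3 FPKM there, nearer to the 190.4 of Rpl3l. Read as single genes, Rpl22 and Rpl22l1 went opposite ways. Rpl22, whose closest copy is 95.8% identical, stood at 291, 499 and 487 FPKM. Rpl22l1, with a copy of 99.45%, stood at 58.3, 0.801 and 89.7. Its Egln1_Tie2Cre value is uncertain for that copy, Gm15421, and the sum of both was nearly level, at 58.5 FPKM in floxed and 57.9 in Egln1_Tie2Cre. Rps27l stood at 149, 226 and 258 FPKM, Rpl7l1 at 17.1, 15.7 and 20.7 and its partner Rpl7 at 309, 57.0 and 380 (379.9). Rpl39l was near the floor, at 0.221 FPKM in floxed and 0.153 in Egln1_Tie2Cre, while Rpl39 stood at 167.8, 20.8 and 293.

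The pseudogenes differed in the other direction. Of the 37 listed in the table of Egln1_Tie2Cre and floxed, 34 were higher in Egln1_Tie2Cre, beside 50% of all 14827 genes without a filter. Of the 31 with a mean of at least 1 FPKM, 26 were at least 2-fold higher and 0 lower. For 24 of those 31, however, 1 library was under 1 FPKM, so they passed through the library in which they were high, and the count is a description only. Rpl38-ps2 stood at 0.481, 392 and 0.358 FPKM in floxed, Egln1_Tie2Cre and Egln1_Hif2a_Tie2Cre. Rps16-ps2 stood at 0.129, 282 and 0.902 FPKM. Rps23-ps, the highest in Egln1_Tie2Cre, stood at 2.16, 437 and 1.80. Among 34 pseudogenes with a value in every library, Egln1_Tie2Cre was the highest in 29.

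Others of the 10 most abundant pseudogenes behaved alike. Rpl39-ps stood at 0.311, 289 and 1.16 FPKM, Rpl19-ps11 at 1.04, 261 and 2.24, and Rpl31-ps8 at 0.994, 257 and 0.907. Rps10-ps2, which has no entry in GENCODE M21, stood at 0.430, 259.5 and 0.332 FPKM. Rps24-ps3 (271 FPKM in Egln1_Tie2Cre, 0.350 in Egln1_Hif2a_Tie2Cre) has no floxed value, and Rpl28-ps1 (0.437 in floxed, 225 in Egln1_Tie2Cre) has none in Egln1_Hif2a_Tie2Cre. Rpl34-ps1 was the exception, already at 156.8 FPKM in floxed and at 225 in Egln1_Tie2Cre, with no Egln1_Hif2a_Tie2Cre value listed. Rps6-ps4 (4.30, 218 and 1.81 FPKM) and Rps25-ps1 (3.99, 65.8 and 6.26) were the next highest in floxed.

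Some pseudogenes stayed low in every library. In Egln1_Tie2Cre 16 of 43 were under 10 FPKM, among them Rpl21-ps15 (0.387, 0.131 and 0.200 FPKM), Rpl27-ps1 (0.222, 0.439 and 0.335) and Rps12-ps1 (1.63, 0.461 and 0.176). The copies of Rpl10 are of this kind although they match the parent closely. Rpl10-ps3, identical to it, stood at 0.659, 1.79 and 0.130 FPKM and Rpl10-ps6, at 99.8%, at 0.204, 0.314 and 0.159.

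Among the copies named as pseudogenes, the closest copy of a parent was the highest. Among 8 parents with at least 2 named copies matched by sequence, the copy with the highest FPKM in Egln1_Tie2Cre was the closest in sequence, or tied for it, in all 8. Of the Rps13 copies shown above, Rps13-ps2 stood at 92.9 FPKM in Egln1_Tie2Cre, Rps13-ps1 at 0.822 and Rps13-ps4 at 0.181, in the order of 0, 2 and 3 differing bases. Rpl19-ps11, with 1 differing base, stood at 261 FPKM and Rpl19-ps1, with 5, at 2.48. Rps2-ps10 (99.4%) stood at 24.5 FPKM and Rps2-ps6 (96.5%) at 2.18. Rps12-ps3 (100%) stood at 59.2 FPKM and Rps12-ps1 (95.3%) at 0.461. Rps19-ps6 (98.9%) stood at 163.2 FPKM and Rps19-ps3 (95.3%) at 0.820. Rpl31-ps8 (100%) stood at 257 and Rpl31-ps23 (92.4%) at 0.493. Identity did not rank the Rpl9 copies, since Rpl9-ps6 and Rpl9-ps4, both at 99.8%, stood at 74.1 and 13.5 FPKM and Rpl9-ps7, at 99.48%, at 17.8. Rps10-ps2 (259.5 FPKM) and Rps10-ps1 (23.9) could not be ranked. Rpl18-ps2 stood at 44.0 FPKM and Rpl18-ps1 at 2.56. Across 41 pseudogenes the identity and the Egln1_Tie2Cre level had a Spearman rho of 0.40. Rps23-ps, 96.97% identical to Rps23 and the highest of all named pseudogenes, stands against that order. Listed copies of any name were then ranked if they had an Egln1_Tie2Cre value. Gm13841 of Rpl29 and Gm10163 of Rpl21 have none and were left out, although each is closer than the copies ranked for its parent. The highest of the ranked copies was the closest of them, or tied for it, in 29 of 34 parents with at least 2. The exceptions were Rps2, Rps18, Rps23, Rpl36 and Rpl21. For Rps2, Gm5786 (98.9%) stood at 29.2 FPKM in Egln1_Tie2Cre, above Rps2-ps10. For Rps18, Gm11361 (94.3%) stood at 54.2 FPKM and Rps18-ps3 (99.3%) at 6.39. For Rps23, the closest copy Gm10186 (99.53%) stood at 0.200 FPKM.

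Parent and pseudogenes were then summed within a family, so that fragments assigned to one member or another of like length enter the same sum. In the 29 families with a floxed value, the median share of the pseudogenes in the family sum was 0.216%, and in Egln1_Hif2a_Tie2Cre it was 0.122%. In Egln1_Tie2Cre it was 88.0% over 30 families, and 21 of them had a share of at least 50%. The median log2 ratio of the family sum between Egln1_Tie2Cre and floxed was -0.92 over 31 families, against -4.52 for their parents alone, and 16 sums were within 2-fold. Over the families listed in all 3 tables it was -0.23. A copy with no listed value counts as 0 in a sum.

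Several sums came out near the floxed value. The Rpl38 family summed to 394.6 FPKM in floxed and 411 in Egln1_Tie2Cre, while the parent alone stood at 394 and 19.3. Rps16 with Rps16-ps2 summed to 230.4 and 286 FPKM. The Rpl3 family summed to 147.0 and 125.3 FPKM, and the Rps6 family to 297 and 219. In each of these 4 the sums lay within 1.4-fold although the parents differed by at least 17-fold.

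**Figure D4:**
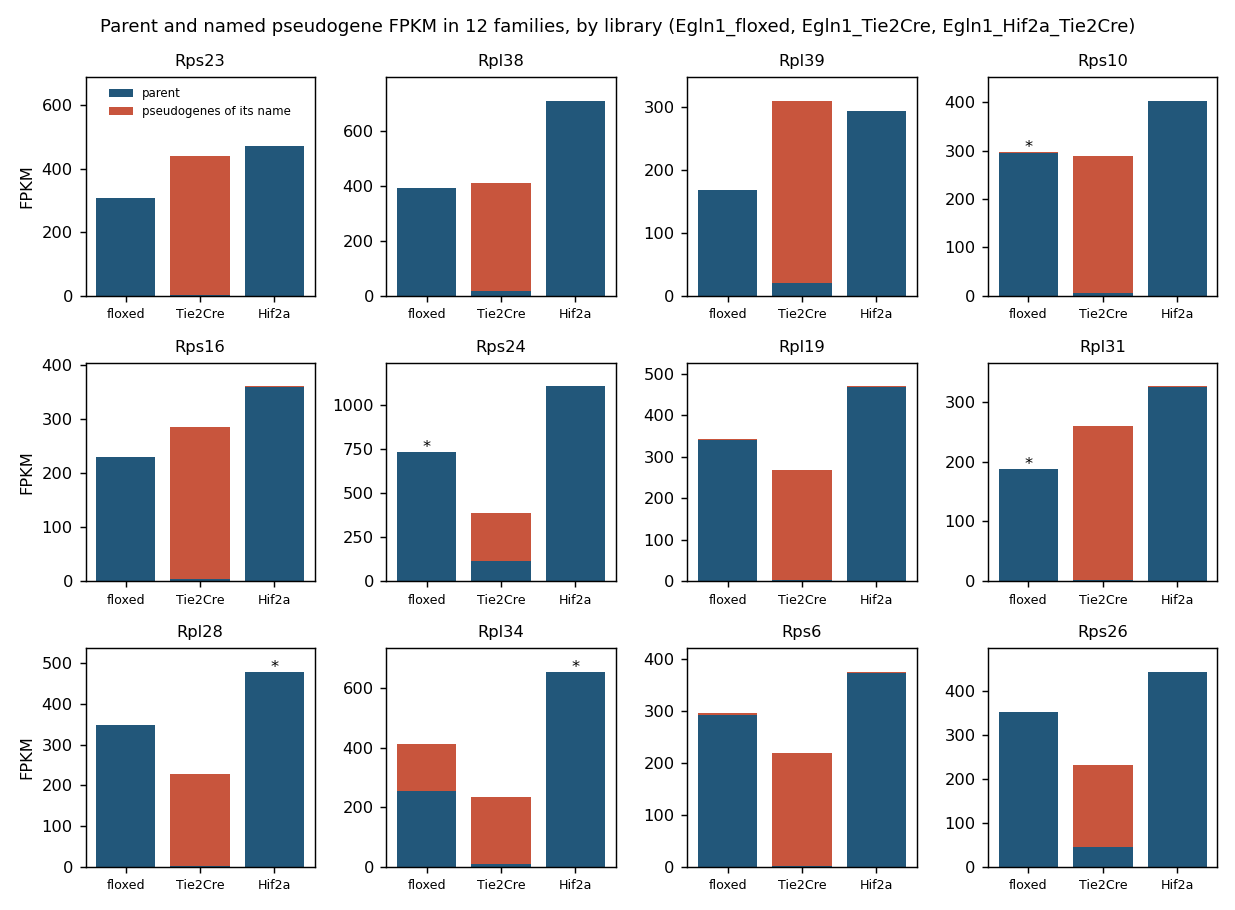
Stacked bars from 0 of the FPKM of a parent (blue) and of the pseudogenes of its name (red) in the 3 libraries, for the 12 families with the highest pseudogene FPKM in Egln1_Tie2Cre; an asterisk marks a bar in which at least 1 copy has no listed value. In Egln1_Tie2Cre the red part makes up most of each bar, and in the other libraries it shows clearly for Rpl34 only, in floxed.

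Many copies carry other names. By sequence, 992 intronless copies of 75 parents are annotated in GENCODE M21, and 118 of them occur in the deposited tables, 76 under names without "-ps". Those 76 include the highest copy of all in Egln1_Tie2Cre, Gm10443, identical to the coding sequence of Rps28, at 6.14, 579 and 22.2 FPKM. Gm4149, a copy of Rpl37a, stood at 0.289, 562 and 0.869 FPKM. Gm7536, a copy of Rpl27a, stood at 2.69, 398 and 0.805. Gm9846, identical to Rps27, was high throughout, at 419, 457 and 658 FPKM, and exceeded Rps27 itself. Gm8730, a copy of the stalk protein Rplp0, was also high throughout, at 87.1, 136.9 and 136.6.

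With copies found by sequence in place of those found by name, the median log2 ratio of the sums was -0.61 over 58 families. Of these, 29 sums were within 2-fold of floxed. This set leaves out Rps10-ps2 and Rpl36a-ps3, which had no sequence match. The Rps10 sum in Egln1_Tie2Cre was 30.8 FPKM by sequence and 290.3 by name. The copies of this set summed to 823 FPKM in floxed, 10479 in Egln1_Tie2Cre and 915 in Egln1_Hif2a_Tie2Cre. Rpl22l1 and its copy Gm15421 summed to 58.5 and 57.9 FPKM in floxed and Egln1_Tie2Cre, Rpl11 and its copies to 298.5 and 308, and Rps7 and its copies to 219 and 227. Sums exceeded floxed at least 2-fold for 4 families, among them Rpl37, Rpl27a and Rpl37a, with log2 ratios of 1.77, 1.33 and 1.14.

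Other sums stayed far lower. They were lowest for Rpl21 (log2 ratio -6.48), Rpl7a (-6.02), Rpl36a (-5.88), Rpl27 (-5.37) and Rpl10 (-5.11). For Rps29, Rpl35a, Rpl41, Rpl23 and Rps20, GENCODE M21 holds copies of at least 98%, and no copy of theirs is listed by its identifier. Rps29 has 3 such copies, Rpl35a 8, Rpl41 4, and Rpl23 and Rps20 1 each. For Rpl21, 12 of 15 such copies are not listed, and for Rpl7a all 10. Rps29, Rpl35a, Rpl41, Rpl23 and Rps20 thus have no family sum, and the sums of Rpl21 and Rpl7a miss copies. Some sums within 2-fold of floxed miss copies too. For Rpl31, 8 of 9 such copies are not listed, and for Rps6, 5 of 6. The part of missing copies in the low sums was not tested.

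Comparing Egln1_Hif2a_Tie2Cre with Egln1_Tie2Cre asks what the added deletion of Hif2a changes. It shares the Egln1_Tie2Cre library with the comparison above. Of 81 parents kept, 64 were at least 2-fold higher in Egln1_Hif2a_Tie2Cre and 2 lower, beside 4.31% and 4.08% of all 11999 genes kept, with a median log2 ratio of 4.50. The 2 lower ones were the intronless Rps3a2 (94.5 against 0.159 FPKM) and Rps3a3 (41.8 against 0.159). Of 29 pseudogenes kept, 28 were at least 2-fold lower and 0 higher. Of these 29, 24 had 1 library under 1 FPKM, so that count too is a description only. All 63 parents with a copy of at least 98% were at least 2-fold higher, and of the 15 without one, 1 (Rps14) was. In the authors' deposited table, a total of 27 parents had a q-value of 0.05 or less, all higher in Egln1_Hif2a_Tie2Cre, against 85 of all 14894 genes listed, 78 of them higher and 7 lower. The lowest q-value of a pseudogene in the authors' deposited table was 0.561.

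Comparing Egln1_Hif2a_Tie2Cre with floxed leaves the Egln1_Tie2Cre library out. Nearly all parents were somewhat higher in Egln1_Hif2a_Tie2Cre. Of 81 kept, 80 were higher by any amount, beside 49.4% of all 11888 genes kept, with a median log2 ratio of 0.53 (1.44-fold), against 0.00 over all genes. At least 1.5-fold higher were 34 of them, beside 4.42% of all genes, and at least 2-fold higher were 2, beside 0.538%, with 0 lower beside 0.437%. The one lower parent was Rpl3l, at 213 and 209.8 FPKM. In the authors' deposited table no parent had a q-value of 0.05 or less, the lowest being 0.0633. The order of the parents by level was much the same, with a Spearman rho of 0.94 over 80 parents, against 0.34 over 79 between floxed and Egln1_Tie2Cre.

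Here the closeness of a copy made no difference, with median log2 ratios of 0.53 over 65 parents with a copy of at least 98% and 0.52 over 15 without. The coding length did go with the ratio, at a Spearman rho of -0.67 over 80 parents. The 10 parents with under 300 coding bases had a median log2 ratio of 0.76, the 46 between 300 and 599 bases 0.58, the 20 between 600 and 899 bases 0.36 and the 4 from 900 to 1499 bases 0.16. Other coding genes leaned the same way, with medians of 0.37, 0.23, 0.09 and 0.01 over 259, 1228, 1573 and 3145 genes in the same classes. In each class the median of the parents was the higher one. Rescaling the libraries to equal sums over genes that are neither members nor mitochondrially encoded moved the median of all genes by -0.16, and the parents' median stayed positive at 0.35.

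**Figure D5:**
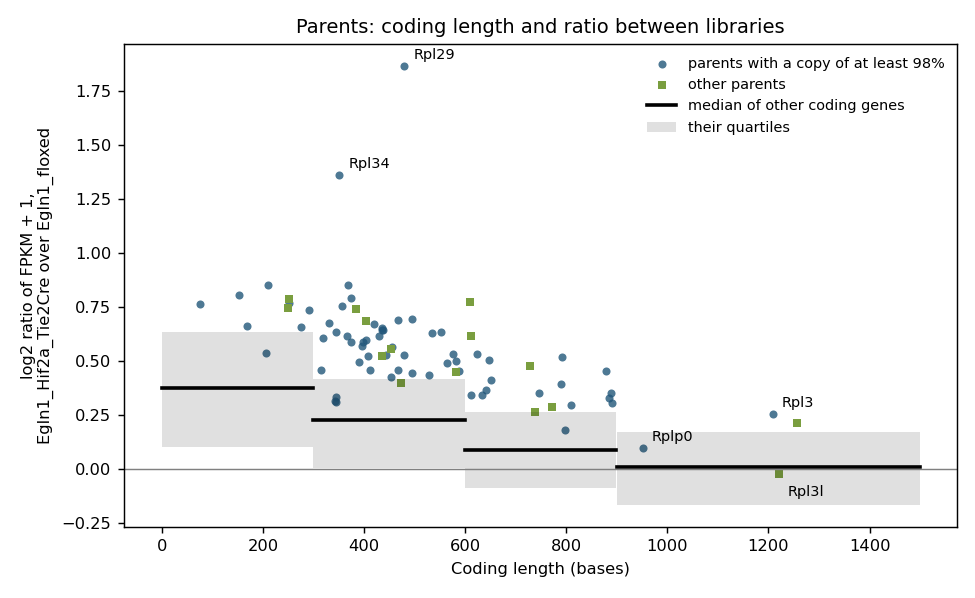
Each point is a parent with introns, with its coding length in bases against the log2 ratio of FPKM + 1 between Egln1_Hif2a_Tie2Cre and floxed; black lines and grey boxes are the median and quartiles of other coding genes by length class. Both run downward with length, and all parents but Rpl3l lie above 0.

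The parents furthest apart were Rpl29 and Rpl34. Rpl29, at 92.8 and 340.4 FPKM, was 3.67-fold higher, and Rpl34, at 255 and 656, was 2.57-fold higher. Each has a copy that was high in floxed. Gm13841, a copy of Rpl29, stood at 73.9 FPKM in floxed and 1.05 in Egln1_Hif2a_Tie2Cre, and Rpl34-ps1 at 156.8 in floxed. As family sums, Rpl29 and its copies stood at 167.6 and 342 FPKM. Behind them came Rpl35 (211 and 382 FPKM), Rpl38 (394 and 711) and Rpl39 (167.8 and 293). Only 7 of the 29 pseudogenes in this table had a mean of at least 1 FPKM, and none was 2-fold apart. Rps12-ps3, at 1.88 and 0.480 FPKM, was the lowest by log2 ratio, at -0.96, and Rpl19-ps11, at 1.04 and 2.24, the highest, at 0.67.

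Other genes of protein synthesis were read beside the members. Of all 11978 genes kept, 3.84% were at least 2-fold lower in Egln1_Tie2Cre than in floxed and 3.93% at least 2-fold higher. Of 4 ribosomal proteins outside the symbol pattern, 3 were at least 2-fold lower in Egln1_Tie2Cre than in floxed. Fau, which makes a ribosomal protein as a fusion, stood at 319, 2.64 and 499 FPKM, and Rpl36al at 168.5, 79.4 and 286. Of 20 other messages with a 5-prime oligopyrimidine tract, 9 were at least 2-fold lower and 0 higher, with a median of -0.37 and Tpt1 at 1360, 133 and 2203 FPKM. Some genes stand in several of these lists. Of 10 elongation factors, 2 were lower, Tufm of the mitochondrion (148.5, 7.14 and 138.7 FPKM) and Eef1g (140.1, 14.8 and 156.7). Eef1b2 (173.9, 276.6 and 249.7 FPKM) and Eef1d (161.0, 207 and 202.6) were not. Of 40 initiation factors, 5 were lower and 1 higher, with a median of 0.22. The helicase Eif4a1 stood at 118.1, 19.5 and 115.5 FPKM and Eif3j2 at 0.0587, 17.0 and 0.0158.

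Genes of ribosome assembly did not share the parents' pattern. Of 61 kept, 50 were higher in Egln1_Tie2Cre by any amount, beside 51.9% of all genes kept, with a median log2 ratio of 0.27. At least 2-fold lower was 1, beside 3.84% of all genes, and at least 2-fold higher were 0, beside 3.93%. The one lower gene was Fbl, the methyltransferase of box C/D particles, at 23.4, 8.40 and 25.9 FPKM. Gnl3 stood at 9.32, 17.5 and 11.1 FPKM and Tsr1 at 6.47, 12.02 and 5.08. Of 24 genes that control ribosomal protein synthesis, 0 were at least 2-fold apart between Egln1_Tie2Cre and floxed, with a median of -0.04. In Egln1_Hif2a_Tie2Cre over Egln1_Tie2Cre, 1 of 23 was at least 2-fold lower, Akt1 (log2 ratio -1.05), beside 4.08% of all genes kept. Rheb, the activator of mTOR, stood at 58.2, 97.5 and 76.4 FPKM, and Akt1 at 87.1, 133.3 and 63.8. Of 75 mitochondrial ribosomal proteins, 4 were at least 2-fold lower in Egln1_Tie2Cre than in floxed and 0 higher, beside 3.84% and 3.93% of all genes kept. Their median was 0.04. Mrpl23 was the lowest, at 92.0, 1.31 and 110.4 FPKM, followed by Mrps36 at 119.8, 20.6 and 137.0. In Egln1_Hif2a_Tie2Cre over floxed, 64 of 76 mitochondrial ribosomal proteins were higher by any amount, beside 49.4% of all genes kept. Their median was 0.22, and Mrpl33 was furthest apart at 144.7 and 301.6 FPKM.

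Pairs of a gene and its named pseudogene outside the cytosolic ribosome, 2 of them of mitochondrial ribosomal proteins, differed in the same directions. Among 34 such pairs of 32 parents, the parents' median log2 ratio between Egln1_Tie2Cre and floxed was -1.23. At least 2-fold lower were 21, beside 3.84% of all genes kept. No filter was set for these pairs, and most of their pseudogenes were under 1 FPKM in floxed, so the count of pseudogenes is a description only. Over 26 pairs with both values the pseudogenes' median was 4.02, with 17 at least 2-fold higher, beside 3.93% of all genes kept. Their share of the pair sum had a median of 0.611% in floxed, 57.1% in Egln1_Tie2Cre and 0.353% in Egln1_Hif2a_Tie2Cre, beside 0.216%, 88.0% and 0.122% in the ribosomal families. The difference between the groups was not tested. Tpt1-ps3 stood at 7.93, 1418 and 5.29 FPKM and Mrpl23-ps1 at 0.265, 78.6 and 0.205, beside Tpt1 and Mrpl23 as given above.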

How the data were processed

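Per the labels' protocols, total RNA was extracted with Trizol and a column with DNase digestion, and sequenced on an Illumina instrument. Per the submitters' processing notes, TopHat2 and Cuffdiff were used; the sources used here give no versions, genome build or annotation, and no handling of fragments with several matches. The authors deposited 3 tables, each with FPKM for 2 libraries and, per the file headers, a q-value and a fold change (ratio of the FPKM) per gene; the fold changes were not used. FPKM of a library were equal in both its tables for every member listed in both. With pandas 2.3.3, log2(FPKM + 1) ratios were computed for genes with a mean of at least 1 FPKM, and 2-fold differences were counted; 0 columns lacked a library. No test was possible with 1 library per genotype. The code was tested on simulated data. Copies were found with BLAST (blastn 2.17.0) among GENCODE M21 (GRCm38) transcripts. An identity of at least 90% over at least 80% of the coding sequence was required, within 1 exon unless the gene is annotated as a pseudogene. By identifier, 15293 of 15503 genes matched. Named genes are those with the highest levels (10 per class) or ratios (5 per direction), the members of families with at least 2 named copies, paralogues, stalk proteins and Rpsa, and 2 genes per list and comparison. Genes outside that rule (Rps3, Rpl5, Rpl11 and others named beside the copy classes, and copies without "-ps") were chosen after their values were seen. A few genes, and their points in 1 plot, were left out and are not reported here. The members and lists were chosen with earlier results of these data known. Alternatives were another pseudocount, filter, threshold, scale, centring and copy set.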

Additional observations from a re-analysis of the deposited data

How the results depend on the processing

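No paired analysis was possible because each genotype has 1 library, and for the same reason no library could be left out. For Egln1_Tie2Cre over floxed, the pseudogenes' median of 6.11 became 7.59 with a pseudocount of 0.1 and 5.32 without a filter, and their 0 lower calls became 1 with that pseudocount or at 1.5-fold. At 1.5-fold the parents higher were 9 in place of 3. For Egln1_Hif2a_Tie2Cre over Egln1_Tie2Cre, the pseudogenes' median of -6.18 became -7.81 with a pseudocount of 0.1 and -4.91 without a filter, and their 0 higher calls became 1 with that pseudocount or at 1.5-fold. For Egln1_Hif2a_Tie2Cre over floxed, the parents at least 2-fold higher were 2, and 34 at 1.5-fold or 0 at 4-fold. The pseudogenes there gave 1 higher and 3 lower with a pseudocount of 0.1 and also at 1.5-fold, 1 lower without a filter and 2 lower after rescaling, in place of 0, and their median of -0.17 became 0.54 at a mean of at least 5 FPKM.

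The median pseudogene share of the family sum became 0.372% in floxed and 0.245% in Egln1_Hif2a_Tie2Cre with copies found by sequence, and 0.220% in Egln1_Hif2a_Tie2Cre over families listed in all 3 tables. The median of the family sums for Egln1_Tie2Cre over floxed was -4.52 with parents alone and -0.23 over families listed in all 3 tables, and for Egln1_Hif2a_Tie2Cre over Egln1_Tie2Cre it was 1.49, 5.21 and 0.78. The 97% and 99% boundaries were added after the data were seen. At 99% the medians of parents without a copy became -0.16 and, for Egln1_Hif2a_Tie2Cre over Egln1_Tie2Cre, 0.62 in place of -0.04. The cause of these shifts was not tested, beyond the changed set of genes. Single members kept within 1.5-fold of their ratio in every setting but the pseudocount of 0.1, which moved 67 of 310 ratios by more. Without counts, the depth behind low values is unknown.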

Other observations

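Some listed genes carry a ribosomal copy inside a longer transcript. Wdr89, a gene of the WD repeat family, holds an exon with a copy of Rplp2 that is 99.4% identical over the coding sequence, and it stood at 0.702, 38.3 and 1.13 FPKM in floxed, Egln1_Tie2Cre and Egln1_Hif2a_Tie2Cre. BC004004 holds a copy of Rpl21 at 98.5% and stood at 86.3 FPKM in floxed and 152.5 in Egln1_Tie2Cre, while Rpl21 itself stood at 214 and 1.80.

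The identifier of the ribosomal protein gene Rpl24 is listed under the symbol in capitals, RPL24, which the pattern does not match. It stood at 372, 2.94 and 588 FPKM in the same order, so that Egln1_Tie2Cre was low there too.

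Gm9625, another listed copy of Rplp0 at 97.4%, stood at 19.4, 52.9 and 33.8 FPKM. Gm11361, a copy of Rps18 at 94.3%, stood at 54.2 FPKM in Egln1_Tie2Cre and 0.273 in Egln1_Hif2a_Tie2Cre.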
